A study of Orestias ascotanensis with 42 samples.

Results

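The miR-125 family in these data is the set of microRNA names that read miR-125, with an optional letter and arm, once the 3-letter species prefix is removed. The rule found 11 of the 1342 names in the count tables. They came from 56 of 3527 entries (a mature microRNA with its precursor), listed for 12 of the 13 fish species whose microRNAs were used for counting. All 11 names had at least 1 read, as did 672 names in the series. The level of a name in a library was the highest read count among its entries.

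miR-125 is the vertebrate relative of lin-4 of the worm Caenorhabditis elegans, the small RNA that times larval development there. In many animal genomes a miR-125 gene lies in a cluster with a let-7 gene and a gene of the miR-99 and miR-100 family, so that the members of a cluster can be made from shared primary transcripts and still reach different mature levels. In zebrafish miR-125b is known to restrain p53, and in mouse myoblasts it slows differentiation by acting on Igf2. Each precursor can give a mature strand from either arm, called 5p and 3p. For miR-125 the 5p strand is the usual product.

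Small RNA was sequenced from Orestias ascotanensis, a killifish of the high Andean Ascotán salt pan. Gills, skin and muscle were taken from the same 14 adult wild fish, 7 from a July collection and 7 from a January collection, which gave 42 libraries in 6 groups of 7. The labels name no treatment other than the season, and no library pools animals. The collections are called winter (July) and summer (January) after the treatment label. The titles say summer for all 42 libraries, so the direction of each seasonal statement rests on the treatment label. The fish of each collection carry the numbers 1 to 7, and a batch label repeats that number in both collections although the fish differ.

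The reads counted once per read profile ranged from 215921 to 11275532 in gills, from 3523648 to 12505101 in skin and from 5261186 to 17236744 in muscle. A read profile is a set of names whose counts match within 5% in every library with at least 20 reads, and 583 names with at least 42 reads formed 365 profiles. Gills summer 4 and gills winter 2 were the shallowest libraries. Of the markers of each tissue, the summed level of the 4 skeletal muscle names ranged from 10063 to 33238 RPM (reads per 1000000 reads counted, with 1 name per profile) in muscle, from 7578 to 16305 in skin and from 755 to 1697 in gills. The 5 epithelial names ranged from 31502 to 134960 in gills, from 13044 to 60351 in skin and from 163 to 590 in muscle. Of these, miR-200a and miR-141 are 1 read profile, so the same reads enter the epithelial sums under both names and the sums are too high. By share of reads, skin held skeletal muscle markers at levels that reached into the muscle range. The part of these markers in the results below was not tested. The abundant name miR-10b took a median of 77.5% of the reads in muscle, 50.7% in skin and 16.4% in gills. This unequal share moves every other name when libraries are scaled by their totals. The marker levels above are scaled in that way, so they are lowered most in muscle and do not compare the marker content of the tissues. In bulk tissue, fewer cells of a type and less RNA per cell cannot be told apart.

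The 11 names rest on few distinct sets of reads. Of the 56 entries, 22 carried the same counts within 0.534% and 27 others carried a second set within 0.417%, so 49 entries report only these sets. The first set is the one 9 species list as miR-125a, with 102162 reads over all libraries under that name. The second is the one 9 species list as miR-125b, with 144508 reads. The salmon entries are crossed: salmon miR-125a-5p carried the counts of the miR-125b set and salmon miR-125b-5p those of the miR-125a set. Through the highest-entry rule the names miR-125a-5p (151855 reads) and miR-125b-5p (151785 reads) therefore took whichever set was higher in a library and formed 1 profile. The medaka entry named miR-125c carried the miR-125b set, so the name miR-125c (144339 reads) is the same measurement as miR-125b. The zebrafish entry miR-125c-5p and the catfish entry miR-125c had 89 reads each. The log2 ratio of miR-125c over miR-125b stayed between -0.0060 and 0 in all 42 libraries. The values below are therefore given for miR-125a and miR-125b, which rest on 1 set each, and for the 3p names.

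miR-125b was present in every library, with 113 reads at the lowest, in gills summer 4, and 11748 at the highest, in gills summer 5. As RPM, its level in gills ran from 624 to 1174 in winter with a median of 1063, and from 523 to 1116 in summer with a median of 972. In skin it ran from 396 to 1015 in winter (median 543) and from 308 to 798 in summer (median 568). In muscle it ran from 154 to 363 in winter (median 264) and from 80.8 to 253 in summer (median 122). By share of reads the order of the medians was gills, skin, muscle, and no muscle library reached the lowest gill library, while gills and skin overlapped.

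miR-125a varied more from library to library. Its level in gills ran from 226 to 1126 RPM in winter (median 752) and from 330 to 2177 in summer (median 570.5). In skin it ran from 166 to 1040 in winter (median 358) and from 159 to 1000.4 in summer (median 391). In muscle it ran from 82.4 to 359 in winter (median 101) and from 35.3 to 143 in summer (median 68.2). The 3 tissues overlapped. miR-125a exceeded miR-125b in 9 of 42 libraries, of which 3 were gills, 5 skin and 1 muscle.

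**Figure D1:**
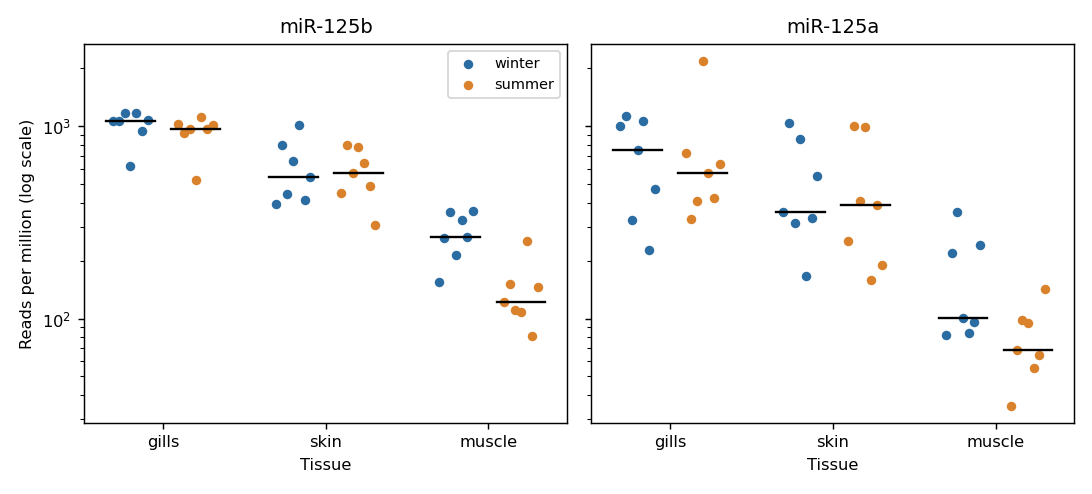
RPM (log scale) of miR-125b (left) and miR-125a (right) in gills, skin and muscle; each point is 1 library, blue for winter and orange for summer, and black lines are medians of 7 libraries. Every muscle library lies below every gill library for miR-125b, with medians of 184.6 and 1022 RPM, and miR-125a is spread more widely within a group, with gills summer 4 at 2177.

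These shares fall in muscle largely in step with all other names, and after scaling by the trimmed mean of M-values (TMM), which sets aside dominant names, the order was different. On TMM-scaled CPM, miR-125b ran from 103 to 205 in gills (median 135), from 98.4 to 353 in skin (median 145) and from 136 to 484 in muscle (median 196). A name was called changed at an adjusted p under 0.05 in edgeR's quasi-likelihood test, with p-values adjusted by Benjamini-Hochberg over all names tested. Of the 11 names, 8 passed the filter on low counts in the tissue fit; miR-125b-3-3p, miR-125b-3p and miR-125c-5p did not. Those 8 names rest on 6 profiles.

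Muscle held more miR-125b than gills and skin on this scale. The log2 change of miR-125b was 0.64 ± 0.17 (SE, n = 14 per tissue) from gills to muscle, with an edgeR adjusted p of 0.000903, and 0.55 ± 0.17 from skin to muscle, with an edgeR adjusted p of 0.0050. From gills to skin it was 0.10 ± 0.17, which did not pass the test. For miR-125a none of the tissue differences passed: the log2 change was 0.14 ± 0.34 from gills to skin, 0.30 ± 0.34 from gills to muscle and 0.16 ± 0.34 from skin to muscle. With the fish as a block, miR-125a-5p and miR-125b-5p, the names that take the higher set, were also called in muscle over gills (0.45 ± 0.18 each, edgeR adjusted p of 0.0253 and 0.0248) and in muscle over skin (0.46 ± 0.18 each, edgeR adjusted p of 0.0264 and 0.0259). Without it their edgeR adjusted p-values were 0.0541 and 0.0528 against gills, and 0.0674 and 0.0658 against skin.

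From gills to muscle 4 of 8 family names rose and 0 fell; over all names tested 76.6% were called, 37.5% higher in muscle. From skin to muscle 4 of 8 rose and 0 fell, against 67.0% of all names called and 32.4% called higher. With no filter on low counts 2 of these 4 calls were lost, those of miR-125a-3p (0.41, edgeR adjusted p of 0.0793) and miR-125b-2-3p (0.44, edgeR adjusted p of 0.0542). From gills to skin 2 of 8 rose, both 3p names, and 0 fell, against 54.5% called and 25.7% called higher. The family's share called in either direction was below the background in all 3 comparisons. Its share called higher was above the background in both comparisons with muscle and close to it from gills to skin. However, the 4 names called in muscle include miR-125b and miR-125c, which are the same measurement. The other 2 are miR-125a-3p and miR-125b-2-3p, which count as 2 profiles but are uncertain as separate molecules. By profile, 3 of 6 were called in each comparison with muscle, beside 243 and 210 of all 315 profiles called in either direction. Whether the family differs from the background was not tested. The median log2 change of the 8 names was 0.10 from gills to skin, 0.53 from gills to muscle and 0.48 from skin to muscle, beside -0.0030, -0.10 and -0.11 over all names.

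The direction rests on the scaling. With total counts in place of TMM, the median of all names shifted to -1.07, -3.49 and -2.39 in these comparisons, and miR-125b fell by 1.01 from gills to skin, by 2.81 from gills to muscle and by 1.80 from skin to muscle. Relative to those medians miR-125b was the higher in each comparison, but from gills to skin the gap was within its SE of 0.19. Setting a name against the median of all names is close to what TMM does, so this is not separate support. The split of all names changed with the scaling, from 135 higher and 151 lower to 72 and 366 for skin over gills, from 197 and 205 to 48 and 442 for muscle over gills, and from 170 and 182 to 43 and 433 for muscle over skin. The TMM factors ranged from 1.69 to 3.69 in gills and from 0.159 to 0.678 in muscle.

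**Figure D2:**
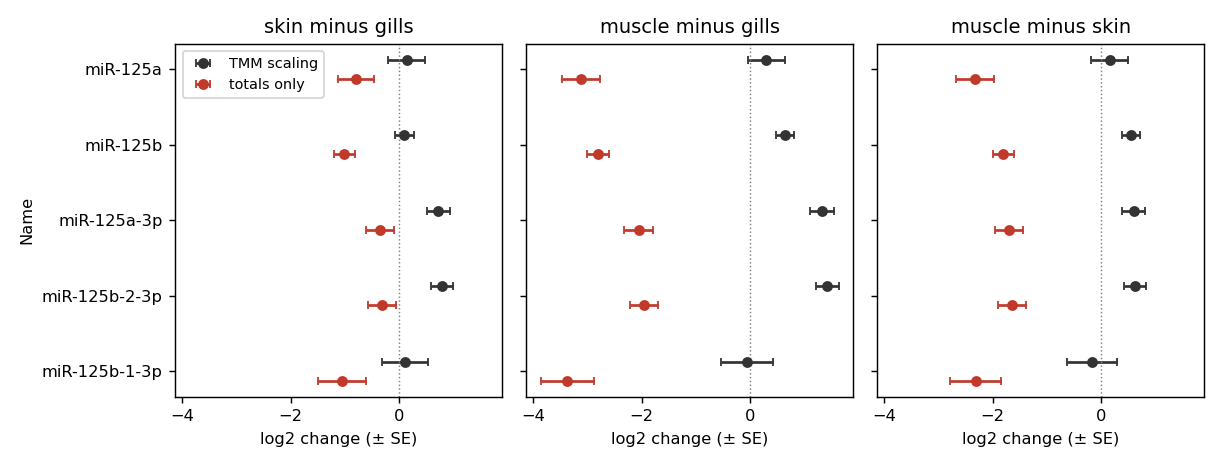
Log2 change between tissues (horizontal axis, with SE bars) of 5 family names in 14 libraries per tissue, with TMM scaling (dark) and with total counts only (red). With TMM the changes of miR-125b from gills and from skin to muscle are 0.64 and 0.55, and with totals only the points of all 5 names lie below 0 in all 3 comparisons.

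The 3p strands were rare. The cod name miR-125a-3p had 1355 reads in all, which is 1.33 per 100 reads of the 5p strand of its precursor, and it was listed at 0 in 1 library. The salmon name miR-125b-2-3p had 936 reads, or 0.916 per 100 reads of its 5p strand, which is the miR-125a set. In the 39 libraries where the cod name had at least 10 reads, the salmon name held 45.5 to 87.5% of its count (median 70.8%), so these names are uncertain as separate molecules. The salmon name miR-125b-1-3p had 266 reads and was at 0 in 5 libraries. The 3p strand paired with the miR-125b set, cod miR-125b-3p, had 59 reads in all, or 0.0409 per 100 reads of its 5p strand, and miR-125b-3-3p had 4 reads. The 3p entries paired with the miR-125a set held 1355, 936, 266 and 4 reads. The 59 reads of the only 3p entry paired with the miR-125b set lie within that span. Whether the sets differ in their 3p strand therefore cannot be told apart from which 3p entries of other species were available for counting.

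By tissue, the cod miR-125a-3p had 1.25 reads per 100 5p reads in gills, 1.18 in skin and 1.89 in muscle, and the salmon miR-125b-2-3p had 0.829, 0.813 and 1.38. As read counts per library, miR-125a-3p ranged from 0 to 87 in gills (median 24.5), from 10 to 103 in skin (median 34.5) and from 4 to 99 in muscle (median 16). Counts this low carry a large counting error, and the 0 in gills summer 4 allows up to 3 reads, by counting error only.

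On TMM-scaled counts miR-125a-3p rose by a log2 change of 0.72 ± 0.21 from gills to skin, 1.32 ± 0.22 from gills to muscle and 0.60 ± 0.21 from skin to muscle, and miR-125b-2-3p by 0.80 ± 0.20, 1.42 ± 0.21 and 0.63 ± 0.20, all called. With total counts only the same changes were -0.35, -2.06 and -1.70 for miR-125a-3p and -0.32, -1.96 and -1.64 for miR-125b-2-3p. The within-library ratio of a 3p strand over its 5p strand does not depend on the scaling. The log2 ratio of miR-125a-3p over its 5p strand was -6.60 ± 1.16 (SD, n = 14) in gills, -6.04 ± 0.69 in skin and -5.67 ± 0.87 in muscle. It was higher in muscle than in gills in 11 of 14 fish, by 0.92, with an exact sign-change p of 0.0358 that was 0.198 after adjustment over 36 ratio comparisons. For miR-125b-2-3p it was higher in 12 of 14 fish, by 0.98, with an exact p of 0.0195 and an adjusted p of 0.176. Neither passed the adjustment. Gills summer 4 had 0 reads of both 3p strands, so its ratios of -9.88 rest on the pseudocount of 0.5. They lower both gill means and so raise both differences.

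**Figure D3:**
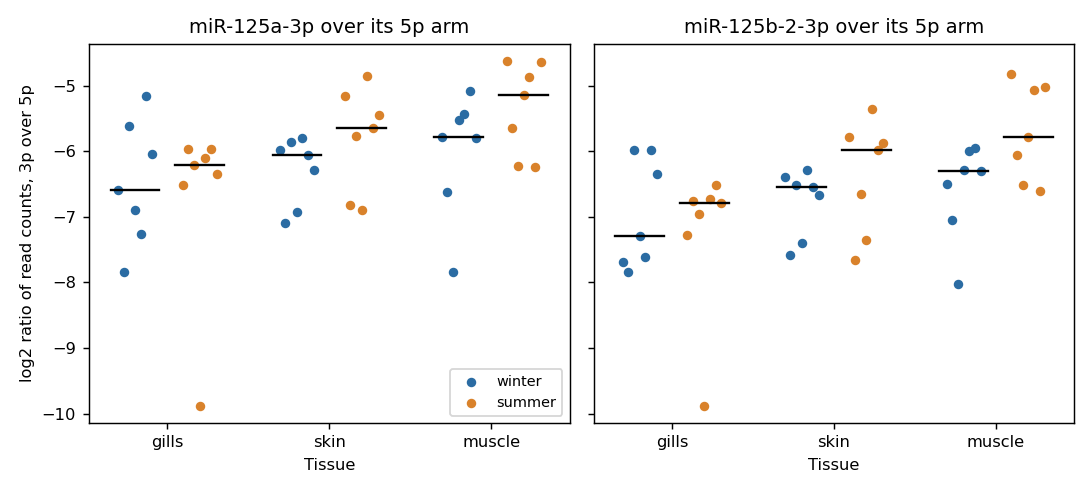
Log2 ratio of the 3p read count over the 5p read count of the same precursor (pseudocount 0.5) for miR-125a-3p (left) and miR-125b-2-3p (right); each point is 1 library, blue for winter and orange for summer, and black lines are medians of 7. Gills summer 4, with 0 reads of each 3p strand, lies lowest at -9.88, and the groups of the 3 tissues overlap.

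Between seasons no family name was called in any tissue, by edgeR or by DESeq2. In gills 0 of 7 names tested were called, against 0.217% of all names, and 0 of 7 had an unadjusted p under 0.05, as 29 of all 460 names did. In skin 0 of 7 were called, against 0.629% of all names, and again 0 of 7 had an unadjusted p under 0.05, beside 50 of all 477 names. In muscle 0 of 7 were called, against 13.8% of all names by edgeR, and 4 of 7 had an unadjusted p under 0.05 in edgeR, beside 115 of all 427 names. These 4 names are miR-125b, miR-125c, miR-125a-5p and miR-125b-5p, which share reads.

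In muscle the log2 change of miR-125b from winter to summer was -0.60 ± 0.28 (SE, n = 7 per season), with an edgeR adjusted p of 0.18, and that of miR-125a was -0.70 ± 0.41, with an adjusted p of 0.271. With total counts only, the same 4 names were called lower in summer, where 17 of all 427 names were called higher and 75 lower (28 and 31 with TMM), and miR-125b stood at -0.97 beside a median of -0.64 over all names. In gills the change of miR-125b was -0.04 ± 0.13 and in skin -0.39 ± 0.24. The 3p names went the other way in muscle, at 0.33 ± 0.31 for miR-125a-3p and 0.54 ± 0.30 for miR-125b-2-3p, and neither passed. An interaction term compared the seasonal changes of the tissues: 0 of 8 family names were called for skin against gills (0.762% of all names), for muscle against gills (1.90%) and for muscle against skin (2.29%). At an unadjusted p under 0.05 there were 2, 2 and 1 family names in edgeR, beside 27, 67 and 63 of all 525 names, and DESeq2 called 0 in each.

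Among the partners of the usual clusters, most miR-99 and miR-100 names were called changed with season in muscle. In skin 1 of 8 names of that list was called, lower in summer, beside 1 higher and 2 lower of all 477 names. miR-100, the most abundant name of its list, ran from 3781 to 10084 RPM in winter muscle (median 5824) and from 10675 to 25462 in summer muscle (median 19747), so the seasons did not overlap. Its log2 change was 2.08 ± 0.29 (edgeR adjusted p of 9.51e-05), and that of miR-99 was 1.94 ± 0.27 (edgeR adjusted p of 9.51e-05). Of the 8 miR-99 and miR-100 names tested in muscle, 7 rose and 0 fell, and 4 of their 5 profiles were called. Here and in the tissue comparisons below, miR-100 and miR-100-5p count as separate profiles. They had the same lowest, median and highest RPM in winter gills, so they are not separate measurements. Of 20 let-7 names, 4 rose and 0 fell, with let-7e at 1.49 ± 0.26 and let-7d-5p at 1.22 ± 0.27, both called. These are 2 of 13 let-7 profiles, beside 34 of all 235 profiles called, so the let-7 share was close to that of all profiles. Over all 427 names 28 rose and 31 fell. let-7a, the most abundant let-7 name and a repressor of growth genes in many animals, was at 0.35 ± 0.45 and did not pass. The median change was 1.94 over the miR-99 and miR-100 names, 0.50 over the let-7 names, -0.60 over the miR-125 names and -0.17 over all names.

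Because miR-125b and miR-100 were counted in the same library, their ratio is free of library scaling. In winter muscle the log2 ratio of miR-125b over miR-100 was -4.95, -3.85, -4.09, -5.05, -4.16, -4.37 and -4.80 in fish 1 to 7. In summer muscle it was -7.70, -7.12, -7.48, -7.07, -5.94, -7.04 and -7.32. All 7 summer libraries lay below all 7 winter libraries, and summer 5 was the nearest to them. The means were -4.47 ± 0.47 and -7.10 ± 0.56 (SD, n = 7), a geometric mean of 0.0452 miR-125b reads per miR-100 read in winter and 0.0073 in summer. The ratio fell by 2.63 on the log2 scale, with an exact allocation p of 0.000583 and an adjusted p of 0.021 over 36 ratio comparisons. With the batch number as a block, the 7 pairs gave an exact p of 0.0156, the smallest that 7 pairs allow, and an adjusted p of 0.113. The block gave the same p-values in skin for miR-125b over let-7a (-0.69) and for miR-125a-3p over its 5p strand (0.49). Without the block their exact p-values were 0.172 and 0.190. On TMM-scaled counts miR-100 rose by 2.08 in muscle from winter to summer, while miR-125b changed by -0.60 and was not called. Most of the fall of their ratio in muscle thus lay with miR-100. The median change of all names was -0.17, and a name at that median would also fall against miR-100. The fall is therefore not particular to miR-125b.

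In gills the same ratio moved far less, from -4.62 ± 0.29 in winter to -4.90 ± 0.13 in summer (SD, n = 7), a difference of -0.28 with an exact p of 0.0361 and an adjusted p of 0.198. In skin it went from -4.25 ± 0.44 to -4.80 ± 0.82, a difference of -0.55 with an exact p of 0.146. The difference between tissues was tested directly, on the difference between tissues within each fish; this test was added after the values were seen. The seasonal change of the ratio in muscle differed from that in gills by -2.35 (exact p of 0.000583, adjusted 0.00874 over 15 comparisons) and from that in skin by -2.08 (exact p of 0.00175, adjusted 0.0131). With the batch number as a block both had an exact p of 0.0156, the smallest that 7 pairs allow, and an adjusted p of 0.0781, which did not pass. For miR-125b over let-7a the block gave the same p-values for muscle against gills (-0.97, exact p of 0.105 without the block). For miR-125b over miR-100, skin against gills gave -0.27 (exact p of 0.499 without the block). In the edgeR interaction test, miR-100 itself differed by 1.83 ± 0.41 (SE) for muscle against gills and by 1.98 ± 0.41 for muscle against skin. Its edgeR adjusted p-values were 0.00794 and 0.00213. miR-125b differed by -0.58 ± 0.34 and -0.05 ± 0.34 and was not called. Of 9 miR-99 and miR-100 names, 7 and 8 were called higher there, beside 8 and 12 of all 525 names.

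By share of reads, most markers of other cell types had lower summed levels in summer muscle, with ranges that overlapped between the seasons. A lower share was not particular to them. With total counts only, the median log2 change of all names in muscle by season was -0.64, with 17 called higher and 75 lower. Summed levels in winter and summer muscle were 257 to 590 and 163 to 333 RPM for the 5 epithelial names, 116 to 460 and 64.1 to 157 for the 2 red blood cell names, 19.1 to 532 and 9.55 to 38.5 for 2 white blood cell names, and 1703 to 5751 and 738 to 2217 for the 2 smooth muscle names. The 3 neural names ran from 147 to 729 in winter and from 370 to 543 in summer, and the 1 pigment cell name found from 202 to 821 and from 167 to 290. The 4 skeletal muscle names ran from 13027 to 33238 in winter (median 18185) and from 10063 to 30953 in summer (median 12088). The epithelial sums count the shared reads of miR-200a and miR-141 under both names. The part of these cell types in the change of the ratio was not tested.

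The ratio of miR-125b over let-7a in muscle was -4.11 ± 0.91 in winter and -5.28 ± 0.93 in summer (SD, n = 7). The difference of -1.16 had an exact p of 0.0385 and an adjusted p of 0.198, and the groups overlapped: winter ran from -5.46 to -3.01 and summer from -6.34 to -3.71. Between tissues the ratio of miR-125b over miR-100 averaged -4.76 ± 0.26 in the gills, -4.52 ± 0.70 in the skin and -5.78 ± 1.45 in the muscle (SD, n = 14). Over both seasons it was lower in muscle than in skin by 1.26, with 3 of 14 fish the other way. This difference (exact p of 0.0039, adjusted 0.0703) failed the adjustment. It lay mostly in summer: muscle minus skin was -0.22 in winter and -2.30 in summer. Likewise muscle minus gills was 0.15 in winter and -2.20 in summer. Of the 36 ratio comparisons, only the seasonal one of miR-125b over miR-100 in muscle passed.

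**Figure D4:**
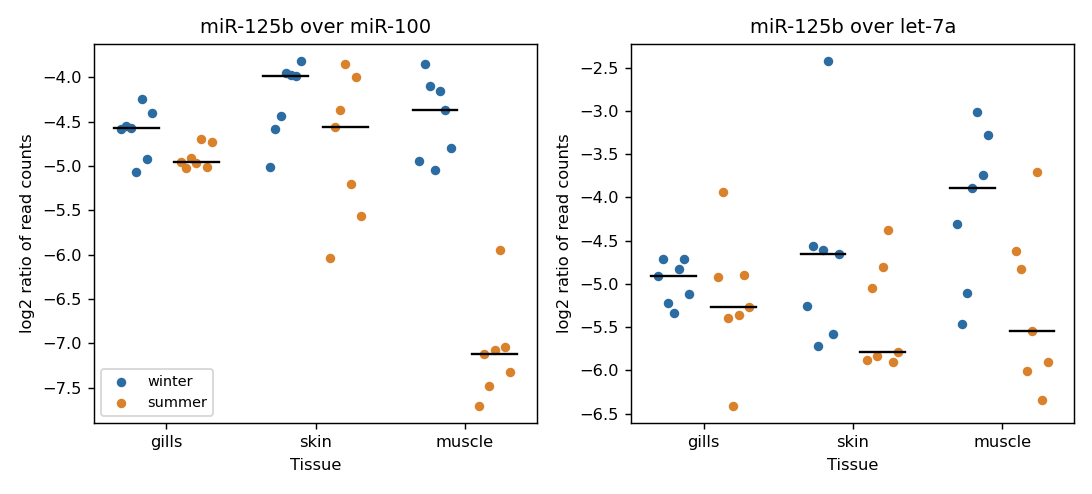
Log2 ratio of the read count of miR-125b over miR-100 (left) and over let-7a (right) by tissue; each point is 1 library, blue for winter and orange for summer, and black lines are medians of 7. Summer muscle lies between -7.70 and -5.94 for miR-125b over miR-100, below all winter muscle libraries (-5.05 to -3.85), while the seasons overlap for let-7a.

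Between tissues most partner names that were called were higher in muscle. From gills to muscle 7 of 9 miR-99 and miR-100 names rose (miR-99 by 1.38 ± 0.19 on the log2 scale) and 0 fell. Of the let-7 names 8 of 20 rose and 0 fell, against 37.5% of all names called higher. By profile, 4 of 6 of the miR-99 and miR-100 list and 6 of 13 of the let-7 list were called, beside 243 of all 315. From skin to muscle 8 of 9 and 6 of 20 rose, and 0 and 4 fell, against 32.4% of all names called higher. By profile 5 of 6 and 6 of 13 were called, beside 210 of all 315. The let-7 share called higher was thus close to that of all names in both comparisons with muscle. From skin to muscle miR-100 changed by 1.76 ± 0.21, let-7d-5p by 1.25 ± 0.20 and let-7a by 0.47 ± 0.24, the last not called. From gills to skin 0 of 9 rose and 3 fell, and 2 of 20 let-7 names rose and 0 fell. Of all 525 names 135 rose and 151 fell. By profile 2 of 6 and 1 of 13 were called, beside 171 of all 315. With total counts only, 0 names of either list rose in any of these comparisons. Of all 525 names, 48 rose from gills to muscle, 43 from skin to muscle and 72 from gills to skin.

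The balance of miR-125a and miR-125b varied within a tissue by more than the means of the tissues differed. Within a collection each fish has its own batch number, so fish and batch cannot be told apart in this variation. Its log2 ratio averaged -0.64 ± 1.05 in the gills, -0.46 ± 0.89 in the skin and -0.86 ± 0.76 in the muscle (SD, n = 14), and none of the 6 comparisons of tissue or season passed; the lowest adjusted p was 0.218, for muscle against skin. In winter skin the log2 ratio was -0.15, 0.38, -0.50, 0.39, -2.61, -0.32 and 0.03 in fish 1 to 7. In summer skin it was -0.83, 0.33, -0.48, 0.34, -2.02, -0.32 and -0.70. Number 5 was the lowest in both collections and numbers 2 and 4 were the highest, although these are different fish. In muscle, number 5 was again the lowest, at -1.95 in winter and -2.19 in summer. In gills, number 5 was at -0.14 and -0.97, within the range of the others.

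Across the 7 numbers the skin ratios of the collections had a Pearson r of 0.907 (exact permutation p of 0.00893) and a Spearman rho of 0.714 (exact permutation p of 0.0881). After adjustment over 6 such relations these were 0.0536 and 0.475, and r was 0.564 without the 2 numbers farthest from the median. In gills r was 0.474 (exact permutation p of 0.284; rho 0.393, exact permutation p of 0.396; r 0.346 without 2 numbers) and in muscle 0.466 (exact permutation p of 0.283; rho 0.536, exact permutation p of 0.236; r -0.28 without 2 numbers). Between skin and muscle of the same fish, over 14 fish, r was 0.599 (permutation p of 0.0204, adjusted 0.0613; rho 0.279, permutation p of 0.331). It was 0.634 within winter and 0.613 within summer, and it fell to 0.0317 without the 2 fish farthest from the median, so it rests on them. Tissues of the same fish also share a batch number, so fish and batch cannot be told apart here. Gills and skin gave an r of 0.162 (permutation p of 0.56; rho 0.319, permutation p of 0.268), and gills and muscle 0.0893 (permutation p of 0.772; rho -0.05, permutation p of 0.868).

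**Figure D5:**
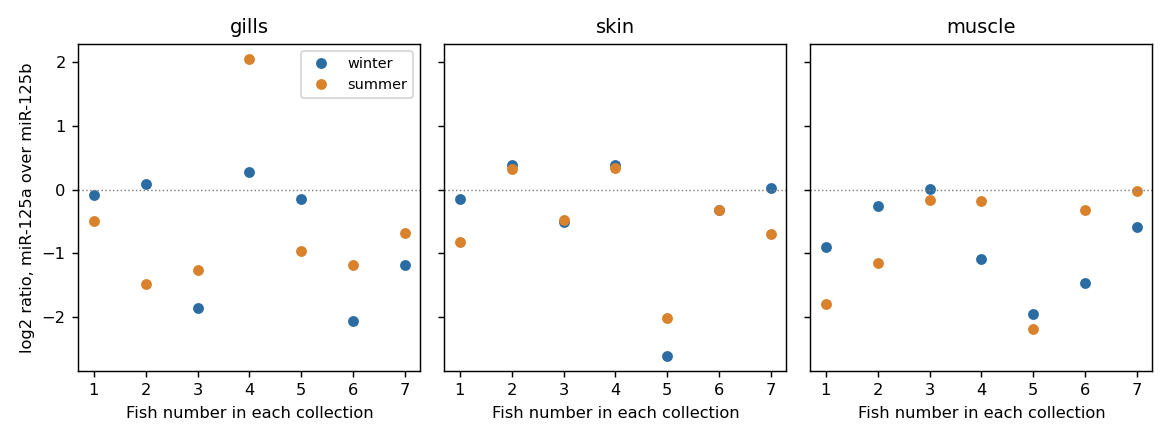
Log2 ratio of miR-125a over miR-125b (vertical axis) against the number of the fish within its collection (horizontal axis) in gills, skin and muscle; blue is winter and orange is summer, and the same number is a different fish in each. Number 5 is the lowest in skin (-2.61 and -2.02) and in muscle (-1.95 and -2.19), and gills summer 4 stands highest at 2.05.

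Across the 42 libraries, the 5 profiles most like miR-125b among 308 outside the family, by Pearson r of log2 TMM-scaled CPM, were miR-30a-5p (0.717), miR-30b-5p (0.713), miR-214 (0.669), miR-214-3p (0.650) and miR-23a (0.635), beside a median r of -0.02 over profiles. After subtracting the mean of each tissue and season group they were miR-214 (0.750), miR-23a (0.743), miR-214-3p (0.735), miR-30b-5p (0.670) and miR-16a-5p (0.657), beside a median of 0.0798. The libraries share their depth and scaling across profiles, so these values are descriptions. miR-125a had an r of only 0.284 with miR-125b, and 0.190 after subtracting group means. Among the cluster partners r was 0.402 for miR-100, 0.345 for miR-99 and -0.06 for let-7a, and 0.497, 0.396 and -0.06 after subtracting group means.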

How the data were processed

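Mature microRNAs were counted in 42 small RNA libraries (read 1 of Illumina TruSeq Small RNA libraries, per the labels' protocols). For each library the authors deposited raw read counts, as whole numbers, per mature microRNA and precursor. A column of CPM values computed by the authors stands beside them and entered no test. The sources used here do not name the aligner, its settings or the microRNA release. The 3527 entries common to all tables were used. A read is counted under every entry it matches, so RPM values here use 1 name per read profile as the denominator. Reads carry no molecular identifiers, so limits on counts of 0 cover counting error only.

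The count tests used edgeR 4.0.16 under R 4.3.3, with TMM, filterByExpr (minimum count 10, minimum total 15), quasi-likelihood F tests and adjustment by Benjamini-Hochberg over every name tested. Tissues and interactions were fitted over 42 libraries in 6 groups, seasons over the 14 libraries of a tissue. SE was taken as the log2 change over the root of F. Log2 ratios (pseudocount 0.5, median of at least 10 reads) were tested two-sided with exact sign changes over 14 fish (16384) or exact allocations of 7 and 7 (3432). Their p-values were adjusted in SciPy 1.17.1. Correlations used exact permutation for 7 pairs and 100000 permutations for 14. The fits were tested on simulated data. Apart from the changes put in, the simulated libraries shared a mean composition. They reproduced neither the tissue differences in the share of miR-10b nor the pairing by fish, so they do not bear on the choice of scaling. Alternatives were DESeq2 1.42.0, total counts, TMM without miR-10 names, no filter, 1 name per profile, summed entries, without salmon entries (added after seeing the data), without 2 shallow gill libraries, and a replicate block.

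The tissues of a fish are paired by the fish, and the labels call the shared number a batch. The main count tests used neither pairing, and the main seasonal ratio tests did not use the batch number. Ratio tests between tissues were paired by fish. The replicate block, an alternative, treated both as pairs. After group means were subtracted, libraries with the same number correlated with a median r of 0.495 in gills, 0.681 in skin and 0.078 in muscle. Tissues of the same fish had a median r of 0.152 for gills and skin, 0.0464 for gills and muscle, and 0.115 for skin and muscle. No 2 libraries of a group were identical in 126 pairs (lowest chi-square per degree of freedom 41.7). The members and lists were chosen with earlier results of these data known. Members with at least 42 reads are described in full, 1 name per profile; partners are named for the 3 most abundant profiles of each list, and likeness for the 5 highest r.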

Additional observations from a re-analysis of the deposited data

Results flagged for a closer look

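In 54 groups of 7 libraries, the highest or lowest library was compared with its neighbours by Dixon's test, which flags about 1 in 20 groups by chance; 14 values stood apart. Gills summer 4, the shallowest library, gave 6 of them: miR-125a at 2177 RPM (others 330 to 728), miR-125b at 523 (others 923 to 1116), miR-125a-3p at 0 (others 5.12 to 8.26), a log2 ratio of miR-125a over miR-125b of 2.05 (others -1.48 to -0.49), and log2 ratios of -9.88 for both miR-125a-3p and miR-125b-2-3p over their 5p strands, from 0 reads of each 3p strand. Gills winter 4 was low for miR-125b, at 624 RPM (others 939 to 1174).

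In muscle, summer 5 was high for miR-125b, at 253 RPM (others 80.8 to 152), and for its log2 ratio over miR-100, at -5.94 (others -7.70 to -7.04), which is toward the winter values. Muscle summer 7 was high for miR-125a-3p, at 5.74 RPM, and for miR-125b-2-3p, at 4.41, and muscle winter 7 for miR-125b-2-3p, at 3.00. In skin, winter 5 was low for the log2 ratio of miR-125a over miR-125b, at -2.61 (others -0.50 to 0.39), and high for that of miR-125b over let-7a, at -2.43 (others -5.72 to -4.57).

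The seasonal change of the log2 ratio of miR-125b over miR-100 differed between tissues by the exact test of that difference: by -2.35 between muscle and gills and by -2.08 between muscle and skin, with adjusted p-values of 0.00874 and 0.0131, and of 0.0781 for both with the batch number as a block. Taken as single names in edgeR, miR-100 was called for both differences and miR-125b for neither.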

How the results depend on the processing

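Scaling by total counts turned more directions than any other setting tried. From gills to skin it gave log2 changes of -0.79 for miR-125a, -0.35 for miR-125a-3p, -1.02 for miR-125a-5p and miR-125b-5p, -1.01 for miR-125b and miR-125c, -1.05 for miR-125b-1-3p and -0.32 for miR-125b-2-3p, with 6 names called. From gills to muscle it gave -3.12, -2.06, -2.97, -2.81 and -1.96 for miR-125a, miR-125a-3p, miR-125a-5p and miR-125b-5p, miR-125b and miR-125c, and miR-125b-2-3p, with 8 called. From skin to muscle the same names stood at -2.33, -1.70, -1.95, -1.80 and -1.64, with 8 called. By season it gave -0.025 for miR-125a in gills, 0.33 for miR-125a-3p and 0.22 for miR-125b-2-3p in skin, and -0.048 for miR-125a-3p in muscle, where 4 names were called.

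Values that did not pass also changed sign. From gills to skin these were -0.0084 for miR-125a and -0.036 for miR-125a-5p and miR-125b-5p with DESeq2, and -0.019 for both names with no filter. From gills to muscle miR-125b-1-3p was at 0.10 with DESeq2 and with 1 name per profile, and from skin to muscle miR-125a was at -0.023 with no filter. By season in gills miR-125b was at 0.0048 without miR-10 names in TMM, 0.025 with DESeq2, 0.013 with no filter, 0.0016 with 1 name per profile and 0.057 without the shallow libraries, where miR-125a went from 0.31 to -0.40. In skin miR-125a-3p was at 0.0072 with 1 name per profile. Among ratios without the shallow libraries, the seasonal change in gills was -0.17 for miR-125a over miR-125b, 0.073 for miR-125a-3p over its 5p arm and 0.059 for miR-125b over let-7a, and the change of the last from gills to skin was -0.10. With summed entries miR-125c over miR-125b was at 0.0014 in muscle by season. The cause was not tested.

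Other counts called moved from 2 to 1 for gills to skin without salmon entries, which removes miR-125b-2-3p from the names tested, and from 4 to 2 for skin to muscle with no filter, where miR-125a-3p and miR-125b-2-3p were lost; the cause of that loss was not tested.

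With the replicate block, miR-125a-5p stood at -0.011, miR-125b-5p at -0.012 and miR-125b-1-3p at -0.20, from gills to skin, and miR-125a-3p at 0.0081 in skin by season, none called. The paired seasonal ratio of miR-125b over miR-100 in muscle was again -2.63, with an exact p of 0.0156 and an adjusted p of 0.113. The differences of this change between muscle and gills and between muscle and skin also did not pass with the block (adjusted p of 0.0781 each). All 3 had the smallest exact p that 7 pairs allow, which passes the adjustment only where several comparisons reach it. Apart from these losses and the gains of miR-125a-5p and miR-125b-5p in muscle, the block changed no other call among the results it was run on. Depth limits the 3p names, with medians of 3 to 25.5 reads per library, and gills summer 4.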
